A study of Rattus norvegicus with 8 samples.

Results

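The genes of retinoid binding and metabolism were followed in rat liver after dexamethasone, AICAR or both. They were the plasma and cellular carriers Rbp4 and Rbp7, the storage enzyme gene Lrat, the retinol-oxidising Adh1, Adh4 and Rdh16, the retinal-oxidising Aldh1a1, and the receptor genes Rara and Rarb. These 9 genes were chosen by name, after the large rise of Rbp7 and the fall of Aldh1a1 with dexamethasone had been seen in the same arrays. All 9 were measured, by 10 of the 31042 probe sets tested. Of the 9 names, 8 were found by symbol. Adh1 is listed in RefSeq as a synonym of Adh1c, which had 2 probe sets and is called Adh1c below.

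Retinol (vitamin A) circulates bound to RBP4, which hepatocytes make and release with transthyretin. Inside cells LRAT esterifies retinol for storage, which in liver takes place mainly in stellate cells. Alcohol and short-chain dehydrogenases turn retinol reversibly into retinal, aldehyde dehydrogenases of the ALDH1A family turn retinal into retinoic acid, and CYP26 enzymes break retinoic acid down. Retinoic acid acts through the nuclear receptors RARα, RARβ and RARγ paired with RXRs, and Rarb and Cyp26a1 are themselves known to be induced by it.

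Livers of male Sprague-Dawley rats weighing 180 to 200 g were taken 8 h after injection. Every rat received 1 injection into the peritoneum (AICAR at 0.7 g/kg, or saline) and 1 into muscle (dexamethasone at 1.5 mg/kg, or saline), so the vehicle group carried both saline injections. Dexamethasone is a synthetic glucocorticoid and AICAR a compound used to switch on AMPK, a kinase that senses cellular energy; the study asked whether AMPK alters glucocorticoid action. Each of the 4 groups held 2 arrays, this number limits the precision, and since no label names separate rats for the arrays of one group, p-values reflect array-to-array spread alone, which may be technical.

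Values are RMA expression values on the log2 scale, in which 1 unit is a doubling. Errors after ± are limma standard errors of a difference with n = 2 arrays a group, and a probe set was called at a Benjamini-Hochberg adjusted p under 0.05 over all 31042 probe sets. The mean of 7 hepatocyte markers lay between 13.55 and 13.62 on every array. Single markers did change: between both agents and AICAR 2 of the 7 were called higher and 2 lower, where 15.9% and 14.9% of all probe sets were. The mean of 8 Kupffer cell markers lay between 8.63 and 8.82 in vehicle and AICAR livers, between 7.46 and 7.63 after dexamethasone, and between 4.13 and 4.24 after both agents. Actin control signal at its 3′ end exceeded that at its 5′ end, which gauges RNA quality, by a mean of 2.23 in the vehicle group, 2.04 with dexamethasone, 1.82 with AICAR and 1.80 with both. In these bulk samples fewer cells of a type and less RNA per cell cannot be told apart.

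The contrast of dexamethasone with vehicle chose the members, so its values are given as a description, with no test. The difference between both agents and AICAR alone used none of those 4 arrays and serves as the test of the dexamethasone effect. Its standard errors and p-values came from a model of all arrays, so they also drew on the spread of those 4. The members and tests were also chosen with earlier results of these data known, which may have included this difference. For Rbp7 and Aldh1a1, which led to the choice, it is therefore not a fully independent test. For Rbp7 and Aldh1a1 the AICAR contrasts share arrays with the choice and are also a description.

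Promoter windows (250 bases before to 50 bases after the start of the gene, RefSeq, GRCr8) were matched for 8 of the 9 genes, all but Rdh16. Those of 4 genes are shown: Rbp7 and Aldh1a1, which chose the set, Lrat, which gave the largest fall between both agents and AICAR and held a motif searched, and Rarb, the receptor gene that changed. Capitals mark TGTTCT in Lrat, the reverse complement of the hexamer AGAACA that the glucocorticoid receptor binds. The Aldh1a1 and Rarb windows lie inside the span of the annotated gene, which has starts further upstream. The same holds for the Rara window, which is not shown.
Rbp7, chr5:165177350-165177649, minus strand: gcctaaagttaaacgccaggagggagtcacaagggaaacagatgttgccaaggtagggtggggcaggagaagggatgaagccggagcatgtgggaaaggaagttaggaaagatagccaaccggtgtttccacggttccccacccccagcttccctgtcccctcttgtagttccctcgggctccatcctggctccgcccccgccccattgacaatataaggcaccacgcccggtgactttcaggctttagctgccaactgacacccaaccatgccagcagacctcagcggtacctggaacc
Aldh1a1, chr1:227537370-227537669, plus strand: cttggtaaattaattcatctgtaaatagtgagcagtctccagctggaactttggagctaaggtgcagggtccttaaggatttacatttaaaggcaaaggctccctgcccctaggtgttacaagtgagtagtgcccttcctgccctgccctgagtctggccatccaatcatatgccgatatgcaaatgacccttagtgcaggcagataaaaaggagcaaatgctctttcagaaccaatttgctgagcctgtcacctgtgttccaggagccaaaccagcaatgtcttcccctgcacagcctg
Lrat, chr2:170571163-170571462, minus strand: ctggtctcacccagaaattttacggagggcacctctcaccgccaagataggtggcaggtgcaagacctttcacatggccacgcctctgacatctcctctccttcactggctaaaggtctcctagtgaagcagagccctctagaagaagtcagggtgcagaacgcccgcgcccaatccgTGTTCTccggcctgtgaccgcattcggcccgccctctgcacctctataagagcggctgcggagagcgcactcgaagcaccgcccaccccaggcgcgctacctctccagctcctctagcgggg
Rarb, chr15:11336142-11336441, plus strand: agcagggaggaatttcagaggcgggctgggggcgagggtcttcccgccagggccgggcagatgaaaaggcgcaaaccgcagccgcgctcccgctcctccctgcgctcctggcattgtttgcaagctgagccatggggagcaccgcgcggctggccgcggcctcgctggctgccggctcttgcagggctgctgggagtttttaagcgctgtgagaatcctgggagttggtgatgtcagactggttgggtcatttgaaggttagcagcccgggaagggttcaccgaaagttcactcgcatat

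The hexamers AGAACA and AGGTCA were searched on both strands of all 33469 promoter windows of that length. AGAACA was in 1 of the 8 windows of these genes, Lrat at 72 bases before the start, and in 20.7% of all windows. AGGTCA, the hexamer of nuclear receptors such as the retinoic acid receptors, was in 1 of 8, Adh4 at 99 bases before the start, and in 16.2% of all. These matches describe letters in the windows only. Hexamers that differ from these letters, and the longer response elements of these receptors, were not searched. A window without a match, such as that of Rarb, may therefore still hold a binding site.

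Among the carriers, Rbp7, which encodes a cellular retinol-binding protein, was high in both groups given dexamethasone. It read 4.41 and 4.26 in the vehicle arrays, 8.43 and 8.44 after dexamethasone, 3.73 and 4.49 after AICAR, and 7.76 and 7.62 after both. All 4 arrays with dexamethasone lay above all 4 without it. In rats given AICAR, dexamethasone raised Rbp7 by 3.58 ± 0.20 (12.0-fold, adjusted p = 5.17e-06). Against vehicle the difference was 4.10, or 17.2-fold. The first AICAR array lay below 3.84, the lowest lower quartile of any array, and the other arrays without dexamethasone lay little above it. RMA compresses differences at such levels, so the fold is uncertain. With AICAR added to dexamethasone, Rbp7 read 0.74 lower than with dexamethasone alone, and the groups did not overlap.

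Rbp4, the gene of the plasma carrier, was bright and nearly level. It read 13.51 and 13.52 in vehicle, 13.62 and 13.60 after dexamethasone, 13.48 and 13.46 after AICAR and 13.52 and 13.51 after both. The arrays of each group lay close together, and the 4 groups spanned 13.46 to 13.62. The difference between both agents and AICAR alone was 0.04 (95% interval -0.11 to 0.19, adjusted p = 0.706), between AICAR and vehicle -0.04 (-0.20 to 0.11, adjusted p = 0.723), and between both agents and dexamethasone -0.10 (-0.26 to 0.05, adjusted p = 0.359). None of these 3 differences passed the test, although the last was called with a trended and robust prior (adjusted p = 0.00589).

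**Figure D1:**
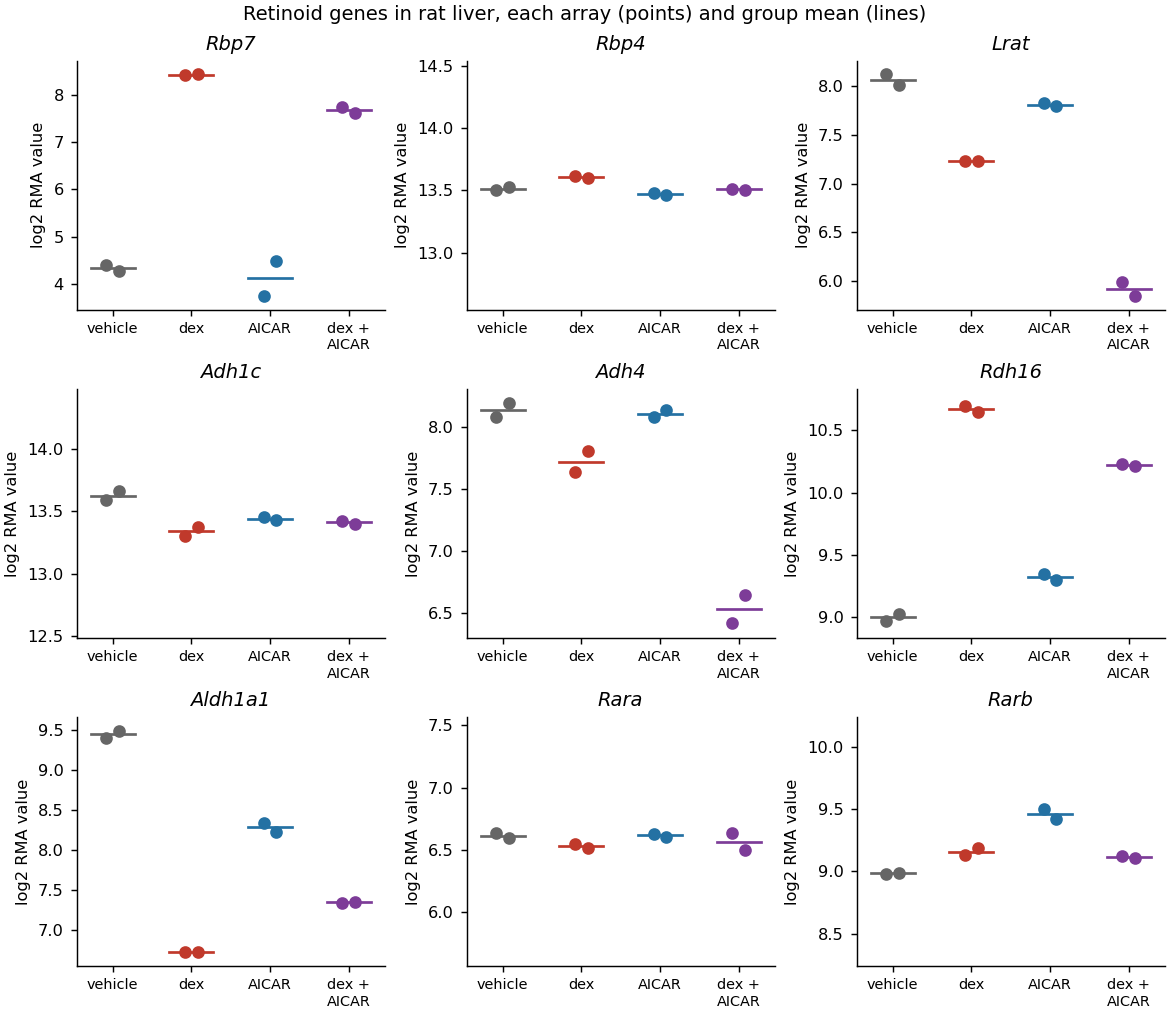
RMA values (y axis, log2 scale, a separate range of at least 2 units in each panel) of the 9 genes in the 4 groups (x axis; dex is dexamethasone), with 1 point per array and a line at each group mean; Adh1c is shown by its brighter probe set. Rbp7 and Rdh16 are higher in both groups given dexamethasone, Aldh1a1 is lower in all 3 treated groups than in vehicle, and Lrat and Adh4 are lowest after both agents.

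The storage gene Lrat, which encodes lecithin:retinol acyltransferase, was lowest in livers given both agents. Its values were 8.12 and 8.02 in vehicle, 7.24 and 7.23 after dexamethasone, 7.83 and 7.80 after AICAR, and 5.99 and 5.84 after both. No 2 groups overlapped. Dexamethasone lowered Lrat in AICAR-treated rats by 1.90 ± 0.08 (3.72-fold, adjusted p = 1.01e-06), and AICAR lowered it in dexamethasone-treated rats by 1.32 ± 0.08 (2.50-fold, adjusted p = 1.43e-05). AICAR alone gave -0.26 ± 0.08, which did not pass (95% interval -0.44 to -0.07, adjusted p = 0.0734). Without AICAR the difference between dexamethasone and vehicle was -0.83.

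Stellate cells are the main site of Lrat in liver, and 12 other markers of these cells were set beside it. Their mean lay between 6.93 and 6.97 in vehicle, between 7.13 and 7.13 after dexamethasone, between 7.37 and 7.39 after AICAR and between 7.26 and 7.34 after both. Between both agents and AICAR 6 of the 12 fell and 2 rose, with a median of -0.22, where 14.9% of all probe sets were called lower and 15.9% higher. The collagen gene Col1a1 changed by -1.31 ± 0.08, Reln, which encodes the secreted protein reelin, by -0.24 ± 0.08, and the proteoglycan gene Dcn by 1.56 ± 0.08, while Des, which encodes desmin, read -0.07 ± 0.11 (adjusted p = 0.663). Between both agents and dexamethasone 2 of the 12 fell and 3 rose, where 9.91% of all probe sets were called lower and 10.2% higher. The Kupffer cell markers were also lowest after both agents, falling in 8 of 8 cases in each of these 2 contrasts (medians of -4.50 and -3.57), and their part in the Lrat values was not tested.

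Of the retinol-oxidising genes, Adh4 fell, Rdh16 rose and Adh1c did not pass the test of dexamethasone in AICAR-treated rats. Adh4, which encodes a class II alcohol dehydrogenase that accepts retinol, was, like Lrat, lowest after both agents. It read 8.08 and 8.19 in vehicle, 7.64 and 7.81 after dexamethasone, 8.08 and 8.14 after AICAR, and 6.42 and 6.65 after both. The vehicle and AICAR arrays overlapped, and the arrays given both agents lay below all others. In rats given AICAR, dexamethasone lowered Adh4 by 1.57 ± 0.10 (2.97-fold, adjusted p = 1.03e-05). In rats given dexamethasone, AICAR lowered it by 1.19 ± 0.10 (2.28-fold, adjusted p = 8.95e-05). AICAR alone gave -0.03 ± 0.10 (95% interval -0.26 to 0.20, adjusted p = 0.887), and dexamethasone alone read 0.41 below vehicle (-0.41).

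Rdh16, a short-chain dehydrogenase gene of the family that oxidises retinol, ran the other way. Its arrays read 8.97 and 9.02 in vehicle, 10.70 and 10.64 after dexamethasone, 9.34 and 9.30 after AICAR, and 10.23 and 10.21 after both. The 4 groups did not overlap, and both groups given dexamethasone were the highest. Dexamethasone raised Rdh16 in AICAR-treated rats by 0.90 ± 0.07 (1.87-fold, adjusted p = 3.09e-05), against a difference of 1.68 without AICAR. AICAR lowered it in dexamethasone-treated rats by 0.45 ± 0.07 (adjusted p = 0.00242). AICAR alone raised it by 0.33 ± 0.07 (adjusted p = 0.0204), but this call ended when any 1 of the vehicle or AICAR arrays was left out (adjusted p from 0.0635 to 0.118) and with only the 2 groups in the fit (adjusted p = 0.0579). Rdh7, a close relative, did not pass between both agents and AICAR (-0.20 ± 0.08, adjusted p = 0.0874) but was called lower in 4 alternatives (adjusted p from 5.59e-04 to 0.0439), and hybridisation across members of this family was not tested.

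Adh1c, a class I alcohol dehydrogenase gene, was bright and varied little. Its brighter probe set read 13.59 and 13.66 in vehicle, 13.31 and 13.37 after dexamethasone, 13.45 and 13.43 after AICAR, and 13.42 and 13.40 after both. Vehicle was highest and dexamethasone alone lowest. No tested contrast passed: both agents differed from AICAR by -0.03 (95% interval -0.19 to 0.13, adjusted p = 0.802), AICAR from vehicle by -0.18 (-0.35 to -0.02, adjusted p = 0.132), and both agents from dexamethasone by 0.07 (-0.09 to 0.24, adjusted p = 0.543). The dimmer probe set gave -0.24 (adjusted p = 0.0554), -0.27 (adjusted p = 0.0688) and -0.02 (adjusted p = 0.917) for these contrasts, so the probe sets differed in sign for the last. Against vehicle, dexamethasone alone read -0.29 on the brighter and -0.49 on the dimmer probe set.

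Aldh1a1, which encodes retinal dehydrogenase 1, was lower in every treated group than in vehicle. The vehicle arrays read 9.41 and 9.50, the dexamethasone arrays 6.71 and 6.72, the AICAR arrays 8.34 and 8.23, and those given both agents 7.33 and 7.35. The 4 groups did not overlap, and dexamethasone alone was lowest. In rats given AICAR, dexamethasone lowered Aldh1a1 by 0.94 ± 0.08 (1.92-fold, adjusted p = 3.58e-05). Without AICAR the difference was -2.74, or 6.66-fold. AICAR read 1.17 below vehicle (-1.17) and, on top of dexamethasone, 0.62 above it, so the AICAR difference had opposite signs without and with dexamethasone.

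**Figure D2:**
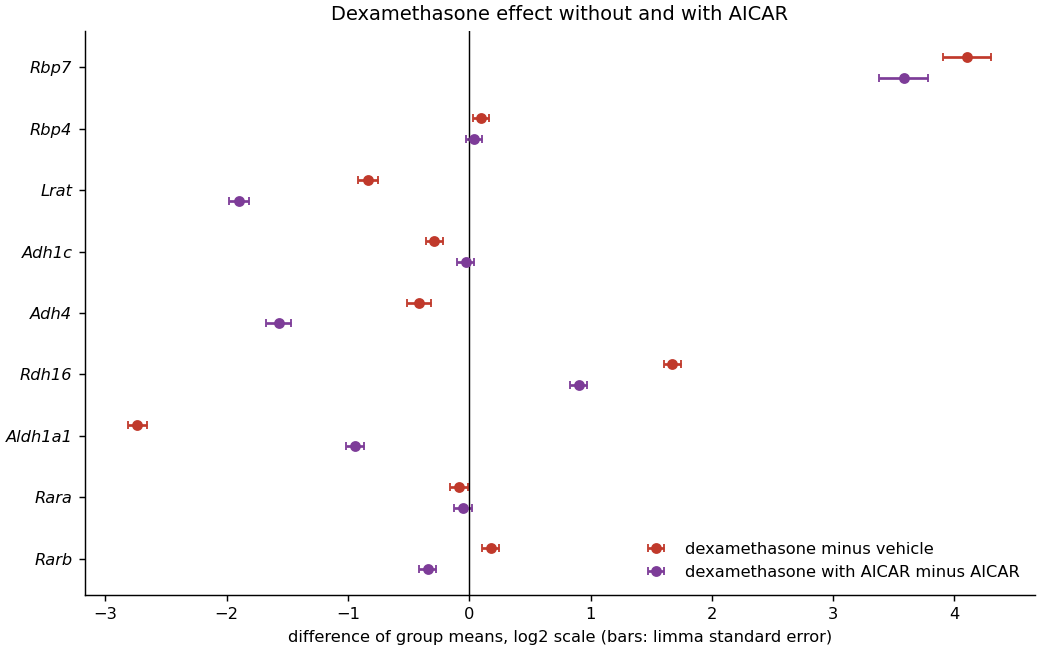
Difference between group means (x axis, log2 scale) for each gene (y axis), for dexamethasone minus vehicle (red) and for both agents minus AICAR (purple); bars are limma standard errors with 2 arrays a group. The red values are a description. With AICAR the differences of Aldh1a1 (-0.94 against -2.74) and Rdh16 (0.90 against 1.68) are nearer 0, and those of Lrat (-1.90 against -0.83) and Adh4 (-1.57 against -0.41) are further from it.

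Of the receptor genes, Rara hardly differed between groups, while Rarb was highest after AICAR alone. Rara read 6.63 and 6.59 in vehicle, 6.54 and 6.51 after dexamethasone, 6.63 and 6.61 after AICAR, and 6.63 and 6.50 after both. Its groups overlapped in the 3 tested contrasts, and none passed: both agents differed from AICAR by -0.05 (95% interval -0.22 to 0.12, adjusted p = 0.662), AICAR from vehicle by 0.00 (-0.17 to 0.18, adjusted p = 0.983) and both agents from dexamethasone by 0.04 (-0.13 to 0.21, adjusted p = 0.794). Rarb read 8.98 and 8.99 in vehicle, 9.13 and 9.19 after dexamethasone, 9.50 and 9.42 after AICAR, and 9.13 and 9.11 after both. AICAR alone raised Rarb by 0.48 ± 0.07 (1.39-fold, adjusted p = 0.0041), and dexamethasone lowered it in AICAR-treated rats by 0.34 ± 0.07 (1.27-fold, adjusted p = 0.00626). Dexamethasone alone stood 0.18 above vehicle. Between both agents and dexamethasone the difference was -0.04 (95% interval -0.20 to 0.12, adjusted p = 0.757).

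Counted together, 6 of the 9 genes were called between both agents and AICAR, where 30.8% of all probe sets were called. Rbp7 and Aldh1a1, which led to the choice, are among the 6. All 9 were at or above the median level, where probe sets are called more often. With only the 15521 such probe sets in the fit, 4715 were called higher and 3910 lower. The 30.8% is thus too low a background for genes this bright. Rbp7 and Rdh16 rose, where 15.9% of probe sets were called higher, and Lrat, Adh4, Aldh1a1 and Rarb fell, where 14.9% were called lower. The median of the 9 was -0.05, against -0.01 over all probe sets. The 3 that did not pass were Rbp4, Adh1c and Rara, and the actin measure of RNA quality was 1.80 and 1.82 in the groups compared.

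The AICAR effect was tested for the 7 genes other than Rbp7 and Aldh1a1. After AICAR alone 2 of these 7 were called, Rdh16 and Rarb, both higher, where 12.9% of all probe sets were called and 5.45% were called higher. With only the 15521 probe sets at or above the median level in the fit, 1996 were called higher and 3076 lower. In that fit 4 of the 7 were called, 2 higher and 2 lower. The median of the 7 was -0.03, against 0.01 over all. In this contrast the share of higher among called probe sets was 42.2% as deposited and 56.1% after centring each array on its brighter probe sets. The count of 2 fell to 1, Rarb, when any 1 vehicle or AICAR array was left out. On top of dexamethasone 3 of the 7 were called, Lrat, Adh4 and Rdh16, all lower, where 20.1% of probe sets were called and 9.91% were called lower. With only the 15521 brighter probe sets in the fit, 3616 were called higher and 3174 lower, a larger share than 20.1%. The median of the 7 was then -0.10, against 0.00 over all. The actin measure stood at 2.23 and 1.82 in the first of these contrasts and at 2.04 and 1.80 in the second, and its part was not tested.

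**Figure D3:**
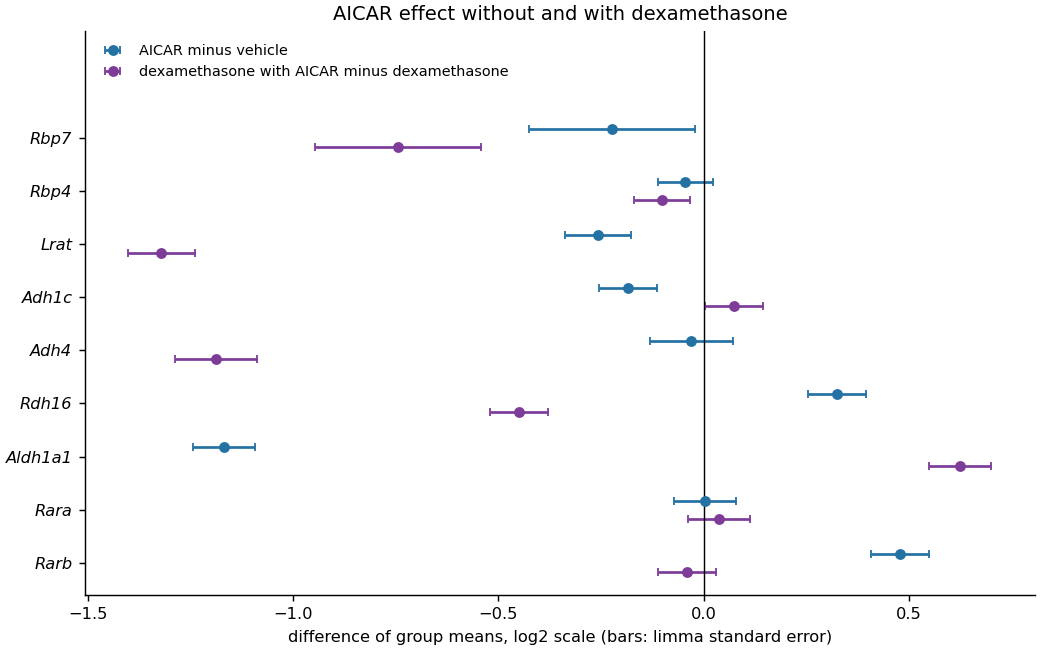
Difference between group means (x axis, log2 scale) for each gene (y axis), for AICAR minus vehicle (blue) and for both agents minus dexamethasone (purple); bars are limma standard errors with 2 arrays a group. Aldh1a1 (-1.17 and 0.62) and Rdh16 (0.33 and -0.45) lie on opposite sides of 0, and Lrat and Adh4 passed the test in the purple contrast (-1.32 and -1.19) and not in the blue one (-0.26 and -0.03).

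Other genes of retinoid handling were taken from a list of 59, of which 50 were measured. Between both agents and AICAR 16 of the 50 fell and 4 rose, with a median of -0.07, where 14.9% of all probe sets were called lower and 15.9% higher with a median of -0.01. After dexamethasone alone 15 fell and 4 rose, with a median of -0.10 against 0.00 over all probe sets. In this last contrast 18.4% of all probe sets were called, 9.77% lower and 8.67% higher, and the share of higher among called probe sets moved from 47.0% to 57.6% with centring. The 2 contrasts compare different arrays, but their standard errors come from the same model of all arrays.

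The 3 largest falls of the list between both agents and AICAR were those of Rarres1, Cyp26b1 and Aox1. Cyp26b1, which encodes a retinoic acid hydroxylase, read 7.35 and 7.28 in vehicle, 5.87 and 5.31 after dexamethasone, 5.74 and 5.71 after AICAR, and 4.15 and 4.11 after both. Each treated group lay below vehicle, and both agents lay below either alone. It fell by 1.72 ± 0.15 after dexamethasone (adjusted p = 1.07e-04), by 1.59 ± 0.15 after AICAR (adjusted p = 5.16e-04), by 1.59 ± 0.15 when dexamethasone was added to AICAR (adjusted p = 9.28e-05) and by 1.46 ± 0.15 when AICAR was added to dexamethasone (adjusted p = 2.78e-04). With the mean of the probe sets of Cyp26b1 these falls stayed called but were smaller, in this order -0.85, -0.72, -0.90 and -0.78. After both agents Cyp26b1 lay little above 3.84, which adds to the uncertainty in size. Cyp26a1, its relative, fell between both agents and AICAR (-0.58 ± 0.13, adjusted p = 0.00975), though its mean after both agents (3.77) was below 3.84, the size is uncertain, and the call ended without AICAR replicate 1 (adjusted p = 0.0514) or replicate 2 of both agents (adjusted p = 0.0631). Dexamethasone alone gave -0.18 ± 0.13 for Cyp26a1 (adjusted p = 0.42).

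Rarres1, a gene named for its response to retinoids, showed the largest fall on the list. It read 10.68 and 10.74 in vehicle, 9.92 and 10.05 after dexamethasone, 10.76 and 10.81 after AICAR, and 7.38 and 7.47 after both. The arrays given both agents lay far below all others. It fell by 3.36 ± 0.08 between both agents and AICAR (adjusted p = 4.91e-08) and by 2.56 ± 0.08 between both agents and dexamethasone (adjusted p = 2.97e-07). Of the 4 measured retinoic acid responsive genes 3 fell and none rose between both agents and AICAR, and all 4 fell after dexamethasone alone, against 14.9% and 9.77% of all probe sets called lower. Besides Rarres1, Tgm2, which encodes a transglutaminase, changed by -0.53 ± 0.08 and -0.82 ± 0.08. As with Lrat, the Kupffer cell markers were lowest in the same arrays, and their part in these values was not tested.

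Aox1, which encodes an aldehyde oxidase able to act on retinal, fell in steps. Its values were 11.37 and 11.32 in vehicle, 10.83 and 10.72 after AICAR, 10.23 and 10.26 after dexamethasone, and 9.27 and 9.29 after both, with no overlap between groups. Dexamethasone lowered Aox1 by 1.10 ± 0.07 alone (adjusted p = 2.06e-05) and by 1.50 ± 0.07 in AICAR-treated rats (adjusted p = 2.1e-06). AICAR lowered it by 0.57 ± 0.07 alone and by 0.97 ± 0.07 in dexamethasone-treated rats. Aldh1a3, a further retinal dehydrogenase gene, rose by 0.46 ± 0.09 after AICAR alone (adjusted p = 0.0123), a call that ended when the second vehicle array (adjusted p = 0.0728) or the second AICAR array (adjusted p = 0.0735) was left out, and changed by -0.65 ± 0.09 between both agents and AICAR.

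Among the 15 measured retinol and retinal dehydrogenases and reductases of the list, 5 fell and none rose after dexamethasone alone, where 9.77% of all probe sets were called lower and 8.67% higher. Adh7, a class IV alcohol dehydrogenase gene active on retinol, fell by 1.40 ± 0.11 and Rdh11, a retinal reductase gene, by 1.07 ± 0.08. When AICAR was added to dexamethasone both were higher, Adh7 by 1.21 ± 0.11 (adjusted p = 1.3e-04) and Rdh11 by 0.70 ± 0.08 (adjusted p = 3.07e-04), and in all 5 of the 15 rose, Retsat (retinol saturase, 0.69 ± 0.07) among them, and 1 fell, against calls of 10.2% (higher) and 9.91% (lower) over all probe sets. The fall was that of Dhrs3, which encodes a reductase that returns retinal to retinol (-0.60 ± 0.07). The arrays of Adh7 read 5.57 and 5.69 in vehicle, 4.31 and 4.15 after dexamethasone, 5.56 and 5.57 after AICAR, and 5.29 and 5.59 after both, so only the group with dexamethasone alone stood apart among these 4. Adh7 there lay little above 3.84, so the size of its differences is uncertain. Between both agents and AICAR 4 of the 15 fell, led by Dhrs3 (-0.92 ± 0.07), and 1 rose, Dhrs7 (0.98 ± 0.07), against 14.9% of all probe sets called lower and 15.9% higher.

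**Figure D4:**
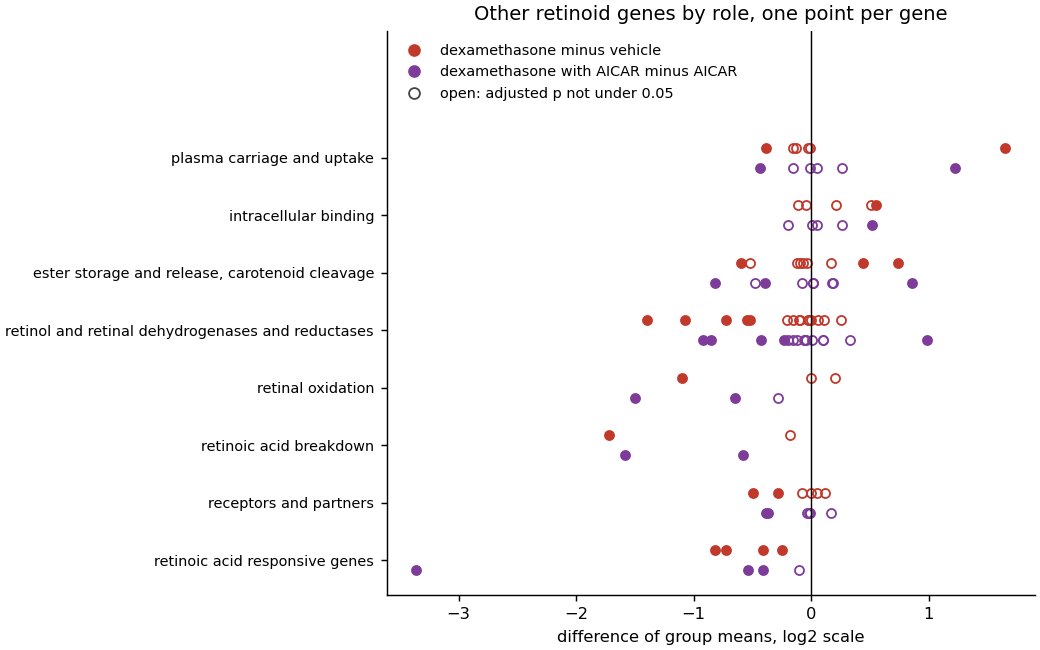
Difference between group means (x axis, log2 scale) of the 50 other retinoid genes, 1 point per gene, by role (y axis), for dexamethasone minus vehicle (red) and both agents minus AICAR (purple); filled points passed an adjusted p under 0.05. Rarres1 lies furthest left (-3.36) and Lpl furthest right (1.65 and 1.22).

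Of the 50 genes 4 rose after dexamethasone alone, where 8.67% of all probe sets were called higher: Lpl, Pnpla2, Fabp5 and the acyltransferase gene Dgat2 (0.44 ± 0.07, adjusted p = 0.00231). In the same role lists Lipa, a lysosomal lipase gene, fell by 0.60 ± 0.08 (adjusted p = 0.00111), and Scarb1, which encodes a lipoprotein receptor, fell by 0.38 ± 0.08 (adjusted p = 0.0125), a call lost when the second vehicle array (adjusted p = 0.0701) or the first dexamethasone array (adjusted p = 0.0684) was left out, and with the mean of its probe sets (-0.25, adjusted p = 0.0648). Lpl, which encodes a lipase that frees fatty acids and retinyl esters from circulating lipoproteins, read 6.63 and 6.52 in vehicle, 8.25 and 8.20 after dexamethasone, 7.58 and 7.71 after AICAR, and 8.89 and 8.84 after both. It rose by 1.65 ± 0.08 after dexamethasone (adjusted p = 3.5e-06), by 1.07 ± 0.08 after AICAR (adjusted p = 1.56e-04) and by 1.22 ± 0.08 when dexamethasone was added to AICAR (adjusted p = 1.17e-05). The triglyceride lipase gene Pnpla2 rose by 0.74 ± 0.07 after dexamethasone and by 0.86 ± 0.07 in AICAR-treated rats, and Fabp5, whose fatty acid-binding protein also carries retinoic acid, by 0.56 ± 0.08 and 0.51 ± 0.08. Bco1, which encodes the enzyme that cleaves beta-carotene to retinal, changed by -0.82 ± 0.07 in AICAR-treated rats and by -0.90 ± 0.07 when AICAR was added to dexamethasone. Ttr, the plasma partner of RBP4, did not pass in either dexamethasone contrast (-0.03 ± 0.07, adjusted p = 0.845, and 0.05 ± 0.07, adjusted p = 0.653).

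Of the 6 measured receptors and partners, 2 fell and none rose between both agents and AICAR, where 14.9% of all probe sets were called lower. These were Nrip1, a corepressor gene (-0.39 ± 0.07, adjusted p = 0.004), and Rxra (-0.37 ± 0.10, adjusted p = 0.0242), whose call ended when any 1 array of these 2 groups was left out (adjusted p from 0.0562 to 0.135). Rxra rose after AICAR alone (0.44 ± 0.10, adjusted p = 0.0259), and this call ended when vehicle replicate 1 was left out (adjusted p = 0.121), as it did for AICAR replicate 1 (adjusted p = 0.126) and AICAR replicate 2 (adjusted p = 0.0859). Of the 50 genes, AICAR alone gave calls for 11, of which 5 rose and 6 fell (8 and 3 after centring), with 7.47% of all probe sets called lower. The falls included Meis1, a homeobox gene responsive to retinoic acid (-0.66 ± 0.09, adjusted p = 0.0025), and Rdh5, a retinol dehydrogenase gene (-0.30 ± 0.08, adjusted p = 0.0395), whose call ended when any 1 vehicle or AICAR array was left out (adjusted p from 0.0853 to 0.181) and which read -0.18 with the mean of its probe sets (adjusted p = 0.126). Without 1 array this count fell to 6 (vehicle replicate 1), 7 (vehicle replicate 2), 6 (AICAR replicate 1) or 5 (AICAR replicate 2). On top of dexamethasone 17 were called, 9 higher and 8 lower, with 10.2% of all probe sets called higher.

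Genes with a profile most like those of Rbp7 and Aldh1a1 were ranked by Pearson correlation over the 8 arrays among 1244 genes whose group means spanned at least 1 log2 unit. This is a description: the arrays fall into treatment groups, and any gene that separates the same groups scores high. The nearest to Rbp7 were Ccn2, Eif4ebp3, Mfsd2a, Omd and Usp2 (r from 0.997 to 0.993). Eif4ebp3, which encodes a translation repressor, had group means of 8.35 (vehicle), 11.81 (dexamethasone), 8.28 (AICAR) and 11.36 (both agents). The nearest to Aldh1a1 were Cept1, Ces1d, Pbk, Gstp3 and Lmnb1 (r from 0.993 to 0.989). Gstp3, a glutathione transferase gene, had group means of 11.75, 9.35, 11.01 and 9.91 in the same order, and Ces1d, a carboxylesterase gene, 12.63, 11.38, 12.05 and 11.57.

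Rbp7 is known from endothelial cells and fat, so markers of both were set beside it. The mean of 9 endothelial markers lay between 7.46 and 7.50 in vehicle, 7.10 and 7.13 after dexamethasone, 7.53 and 7.54 after AICAR, and 7.01 and 7.05 after both, lower in the groups where Rbp7 was high. Between both agents and AICAR 5 of these 9 fell and 1 rose, where 14.9% of all probe sets were called lower and 15.9% higher. The mean of 7 adipocyte markers lay between 5.57 and 5.91 over all arrays. Of these 7, 1 rose and 1 fell between dexamethasone and vehicle, and 2 rose and 1 fell between both agents and AICAR. Cidec, a lipid droplet gene, rose in both contrasts, as Rbp7 read higher in both (0.55 ± 0.08, adjusted p = 0.00191, and 0.75 ± 0.08, adjusted p = 1.84e-04). Cfd, which encodes adipsin, fell in both (-1.03 ± 0.26, adjusted p = 0.0248, and -2.84 ± 0.26, adjusted p = 6.8e-05). Adipoq, a defining fat marker, differed by -0.10 ± 0.11 between dexamethasone and vehicle (adjusted p = 0.609) and by -0.02 ± 0.11 between both agents and AICAR (adjusted p = 0.917), and its means (3.18 after dexamethasone and 3.28 in vehicle) were below 3.84. Fabp4, which macrophages and endothelium also express, changed by 3.33 between both agents and AICAR but read -0.07 between dexamethasone and vehicle. The part of either cell type in the Rbp7 values was not tested.

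**Figure D5:**
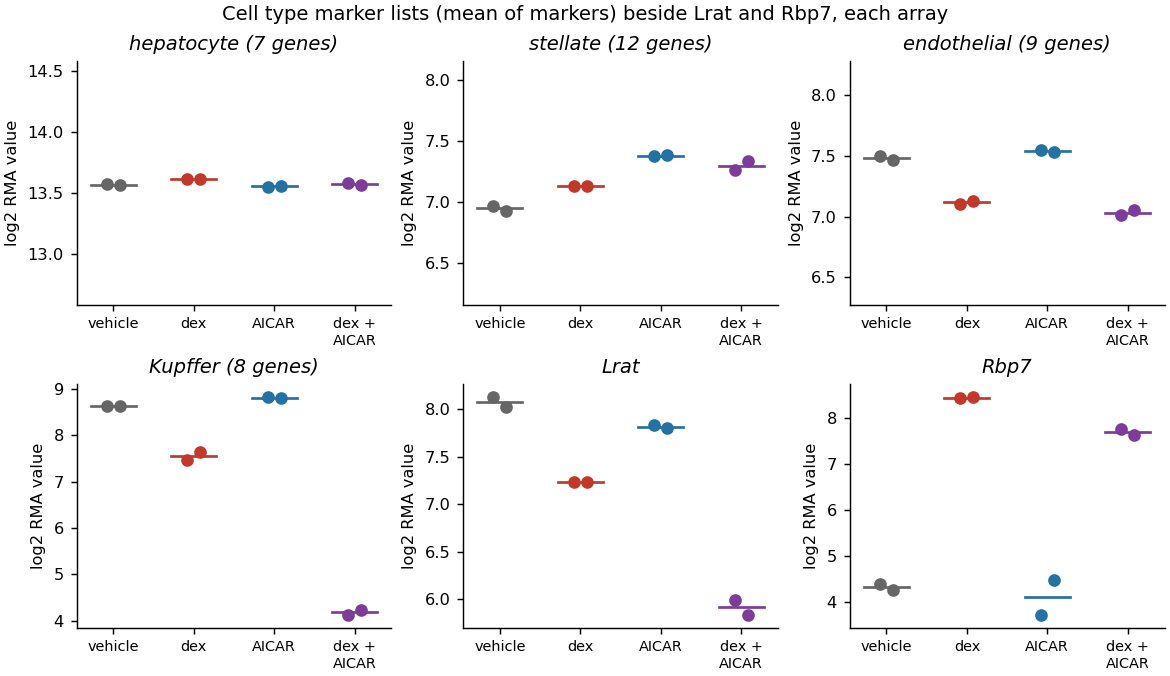
Mean RMA value of the markers of 4 liver cell types and the values of Lrat and Rbp7 (y axis, log2 scale, a separate range of at least 2 units in each panel) on each array by group (x axis; dex is dexamethasone); lines are group means. The Kupffer list falls to between 4.13 and 4.24 after both agents, where Lrat is also lowest, the stellate list stays between 6.93 and 7.39, and the endothelial list is lower in both groups where Rbp7 is high.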

How the data were processed

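Livers were profiled on an Affymetrix rat array, 2 arrays in each of 4 groups taken from the sample titles. The deposited table holds log2 values for which the submitters' processing notes name RMA and affy as the authors' tools; versions are not given in the sources used here, and the base of the logarithm was inferred from the range. Array medians lay between 5.22 and 5.27. RMA sets all arrays to 1 distribution and gives no detection call. The 57 control probe sets were left out, leaving 31042. Names came from the platform annotation, updated by gene ID through RefSeq (GRCr8): 20826 probe sets carried 1 symbol, 436 several and 9780 none. A gene was represented by its probe set with the highest mean.

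Differences were fitted in R 4.3.3 by limma 3.58.1, all 8 arrays entering 1 model of group means (4 residual and 4.58 prior degrees of freedom), and the code was tested on simulated data. An exact permutation test of 2 arrays against 2 cannot go below p = 0.333, so none was made. The 9 members, the list of other retinoid genes, the markers and the tests were chosen with earlier results of these data known. All members were to be named, and of the other genes up to 4 largest rises and falls per contrast; Cyp26a1, Tgm2, Nrip1, Lipa, Scarb1, Ttr, Rdh7 and the marker genes were named after their values were seen. Deviations of same-numbered arrays correlated between -0.04 and 0.16, so no strong effect shared by replicate number was seen. A low correlation cannot show that the arrays were unpaired.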

Additional observations from a re-analysis of the deposited data

Results flagged for a closer look

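Differences of opposite sign, with no overlap of arrays, were found for the genes named here. Whether the paired effects differ was not tested. How many of all probe sets meet this rule was not counted, and with 2 arrays a group a lack of overlap is easily met. The nearly level Rbp4 also showed no overlap in each contrast of dexamethasone or AICAR. AICAR changed Aldh1a1 by -1.17 without and 0.62 with dexamethasone (a difference of 1.79), Adh1c by -0.18 and 0.07 on its brighter probe set (0.26), and Rdh16 by 0.33 and -0.45 (-0.77). The dimmer Adh1c probe set gave -0.27 and -0.02, with overlapping arrays for the latter. For Rarb dexamethasone gave 0.18 without and -0.34 with AICAR, and AICAR 0.48 without and -0.04 with dexamethasone (-0.52 either way). Several of these single values did not pass their own test or were not tested.

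Among the other retinoid genes, only those with the largest called rises and falls were searched, so the list is incomplete. Ttr and Stra6 were not searched. Their dexamethasone differences without and with AICAR also had opposite signs and no overlap (-0.03 and 0.05 for Ttr, -0.01 and 0.27 for Stra6). Among the genes searched, dexamethasone gave 0.20 without and -0.65 with AICAR for Aldh1a3 (-0.85). For Bco1 dexamethasone gave 0.17 and -0.82 (-0.99). The AICAR effects of these 2 genes, 0.46 and -0.39 for Aldh1a3 and 0.10 and -0.90 for Bco1, also ran opposite ways. The AICAR effect without and with dexamethasone was 0.21 and -0.04 for Dgat2 (-0.25), 0.12 and -0.60 for Dhrs3 (-0.72), -0.29 and 0.71 for Dhrs7 (1.00), and 0.07 and -2.56 for Rarres1 (-2.63).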

How the results depend on the processing

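The counts of 6 of 9 members called between both agents and AICAR stayed at 6 in all 15 alternatives, and the 3 of 7 between both agents and dexamethasone at 3, or 4 with a trended and robust prior, which added Rbp4. The count after AICAR alone was the one that moved. Of 7 members it was 4 with only brighter probe sets, 4 with the trended and robust prior, 4 with gene means and 1 with only the compared groups, and 1 to 2 with 1 array left out. Lrat and Adh1c were called in the settings that gave 4. Of the 50 other retinoid genes it was 18 with the trended and robust prior, 7 with only the compared groups, and 5 to 10 with 1 array left out. With the replicate number as a block the 4 counts of other genes were 18, 19, 9 and 17, against 19, 20, 11 and 17, and those of members stayed at 6, 2 and 3. Among the members and the named retinoid genes rerun under the block, the one call lost was the fall of Rdh5 after AICAR (-0.30, adjusted p = 0.0574), which lost it in other alternatives too. Among these genes signs turned only where the test had not passed: Rbp4 between both agents and AICAR was -0.0552 under cyclic loess. Ttr was -0.0446 between both agents and AICAR under cyclic loess and 0.0200 after dexamethasone with centring. Adh4 after AICAR was 0.0290 under cyclic loess and 0.0135 after centring, and ran from -0.0840 to 0.0248 with 1 array left out. With 1 array left out Rara ran from -0.0159 to 0.0237 after AICAR, from -0.0294 to 0.103 between both agents and dexamethasone, and from -0.117 to 0.0150 between both agents and AICAR. The causes were not tested. RMA gives no signal over background, so dim values near 3.84 (Rbp7 without dexamethasone, Cyp26a1, Cyp26b1 after both agents, Adh7 after dexamethasone) have uncertain folds.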
